A study of Arabidopsis thaliana with 12 samples.

Results

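The glutathione transferase family of Arabidopsis thaliana was followed gene by gene, by protein class, in wild type shoots and shoots labelled as mutants of AIG2 genes, PAD4 or both. The members were 47 loci listed by their codes: 28 genes of the tau class (GSTU1 to GSTU28), 13 of the phi class (GSTF2 to GSTF14), GSTZ1 and GSTZ2 of the zeta class, GSTT1 of the theta class and the dehydroascorbate reductases DHAR1, DHAR2 and DHAR3. All 47 were among the 33331 genes of the count table. The study asked what AIG2 genes hold back in chemical defence, and 3′ RNA-seq, which counts transcripts near their 3′ ends, was run on whole shoots of 2-week-old plants kept at 22 °C and 50% humidity under constant light of 100 µmol m-2 s-1. There were 4 genotypes with 3 libraries each: wild type Col-0, aig2abc, pad4, and aig2abc pad4, which combines both. No treatment was given, the lesions in AIG2A, AIG2B and AIG2C are not described in the labels, and separate plants for each library are not stated. P-values therefore refer to the spread among libraries, which may be technical.

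Glutathione transferases join the tripeptide glutathione to reactive small molecules, which are then moved to the vacuole and broken down, and some members bind or carry metabolites without altering them. The plant-specific tau and phi classes are the largest and include many genes known to respond to pathogens, herbicides and oxidants. Zeta enzymes act in tyrosine breakdown, theta enzymes reduce peroxides, and dehydroascorbate reductases use glutathione to return oxidized vitamin C to ascorbate.

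Total counts per library ranged from 584342 in aig2abc replicate 2 to 10697612 in pad4 replicate 2. AIG2C had 0 to 1.48 CPM (counts scaled to a common library size) in the 6 libraries labelled aig2abc or aig2abc pad4, against 26.4 to 55.9 CPM in the others, and PAD4 had 2.68 to 8.14 CPM in the 6 libraries that carry pad4, against 17.1 to 56.7 CPM in the others. AIG2A and AIG2B were still counted in both aig2abc genotypes, unequally, and a 3′ tag outside a lesion checks nothing. AIG2B had 769 ± 240 CPM in Col-0, 709 ± 132 in aig2abc, 989 ± 361 in pad4 and 188 ± 145 in aig2abc pad4, and AIG2A 66.7 ± 5.69, 90.3 ± 16.4, 49.2 ± 2.04 and 215 ± 10.4 CPM. In aig2abc against Col-0 neither passed (edgeR adjusted p = 0.848 and 0.12), while in aig2abc pad4 against pad4 AIG2B changed by -2.40 ± 0.45 and AIG2A by 2.13 ± 0.23 on the log2 scale (edgeR adjusted p = 0.0032 and 7.5e-06). Replicates outside aig2abc differed along a shared axis that held 52.5% of their variance within groups. All 3 aig2abc libraries scored lower on it (-108 to -85) than the other 9 (-61.2 to 49.4). The 9 were scored from the mean of their own genotype, but the aig2abc libraries from the mean of the other genotypes. The aig2abc scores therefore hold any difference of that genotype along the axis. Using the score as a covariate can thus take out part of the aig2abc change itself. Of 4 leaf mesophyll markers the summed level was 22700 to 29500 CPM in Col-0, 11100 to 12100 CPM in aig2abc, 21600 to 33800 CPM in pad4 and 18500 to 19500 CPM in aig2abc pad4. Of 9 root markers 4 were at 0 in every library, and the root sum stayed at or under 6.88 CPM. The 5 flower markers summed to 5.25 to 9.65 CPM in aig2abc and to 1.4 to 3.77 CPM elsewhere, and of 4 seed markers none reached 1 CPM. The flower sum in aig2abc came mostly from PI, with a mean of 5.75 CPM there and 0.97 CPM in Col-0. AP1 and AP3 had 0 counts in aig2abc, and AG and SEP3 had means of 0.575 and 0.862 CPM.

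Of the 47 members, 34 had enough counts to be tested: 19 tau, 10 phi, GSTZ1, GSTT1 and the 3 DHAR genes. Another 12 held 1 to 29 counts over all 12 libraries together (GSTU1, GSTU2, GSTU11, GSTU14, GSTU15, GSTU21, GSTU22, GSTU25, GSTU28, GSTF5, GSTF14 and GSTZ2), and GSTF13 held 0. The filter keeps a gene that is counted in 1 genotype, so counts of changed members below describe the 34 and not the family. GSTU10 and GSTU12, with 0 and 1 counts in all pad4 libraries together, are examples.

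The family's transcripts were unevenly divided. The 47 genes together took 0.559 to 0.642% of all counts in the Col-0 and pad4 libraries, 1.35 to 1.5% in aig2abc and 1.11 to 1.14% in aig2abc pad4. In CPM the sum was 6282 ± 406 in Col-0, 14910 ± 258 in aig2abc, 6059 ± 1122 in pad4 and 10150 ± 1630 in aig2abc pad4 (SD, n = 3 each). The groups with the AIG2 mutations lay above their controls without overlap. Most of the rise lay in the phi class, at 3835 ± 263 CPM in Col-0 and 11780 ± 165 CPM in aig2abc. GSTF2 alone supplied 9.17% of the family's summed CPM in Col-0, 47.9% in aig2abc, 5.71% in pad4 and 25.1% in aig2abc pad4. The tau class stood at 1826 ± 110 CPM in Col-0, 2772 ± 178 in aig2abc, 2256 ± 443 in pad4 and 1914 ± 489 in aig2abc pad4, so that the last pair overlapped. The DHAR genes went the other way in aig2abc, at 270 ± 55 CPM against 527 ± 72.7 CPM in Col-0, while pad4 had 575 ± 144 and aig2abc pad4 536 ± 24.1 CPM.

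**Figure D1:**
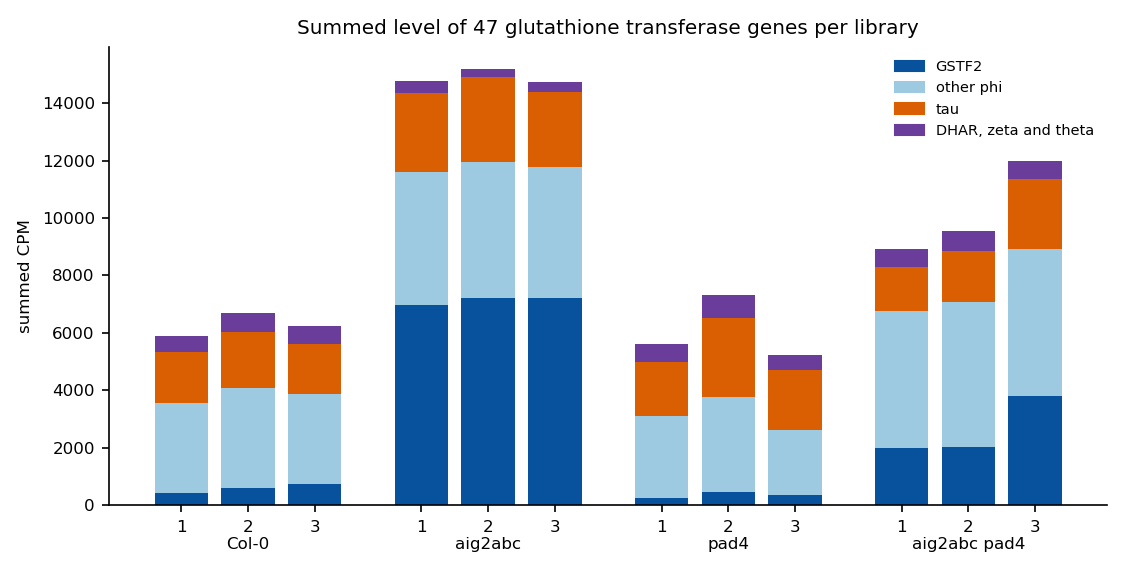
Summed CPM of the 47 members in each of the 12 libraries, stacked as GSTF2, the other phi genes, the tau genes, and the DHAR, zeta and theta genes together. The aig2abc bars reach 14750 to 15210 CPM with GSTF2 at 6967 to 7229 CPM of each, the aig2abc pad4 bars 8910 to 12000 CPM, and the other 6 stay between 5226 and 7336 CPM.

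In Col-0 the most abundant members were GSTF9, a phi enzyme with peroxidase activity, at 1829 ± 126 CPM, and GSTU19, a tau enzyme induced by herbicide safeners, at 1011 ± 40.6 CPM. GSTF8, long used as a marker of oxidative stress, had 696 ± 147 CPM, GSTF10 671 ± 80.5 CPM, GSTF2 578 ± 166 CPM and GSTU20 309 ± 67 CPM. The neighbours GSTF8, GSTF10 and GSTF2 in this order overlapped in their libraries. At the low end, GSTU3, GSTU8, GSTU10, GSTU12, GSTF3 and GSTF7 had means under 1 CPM in Col-0. A 3′ assay counts a transcript about once whatever its length, so these CPM were not divided by length.

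**Figure D2:**
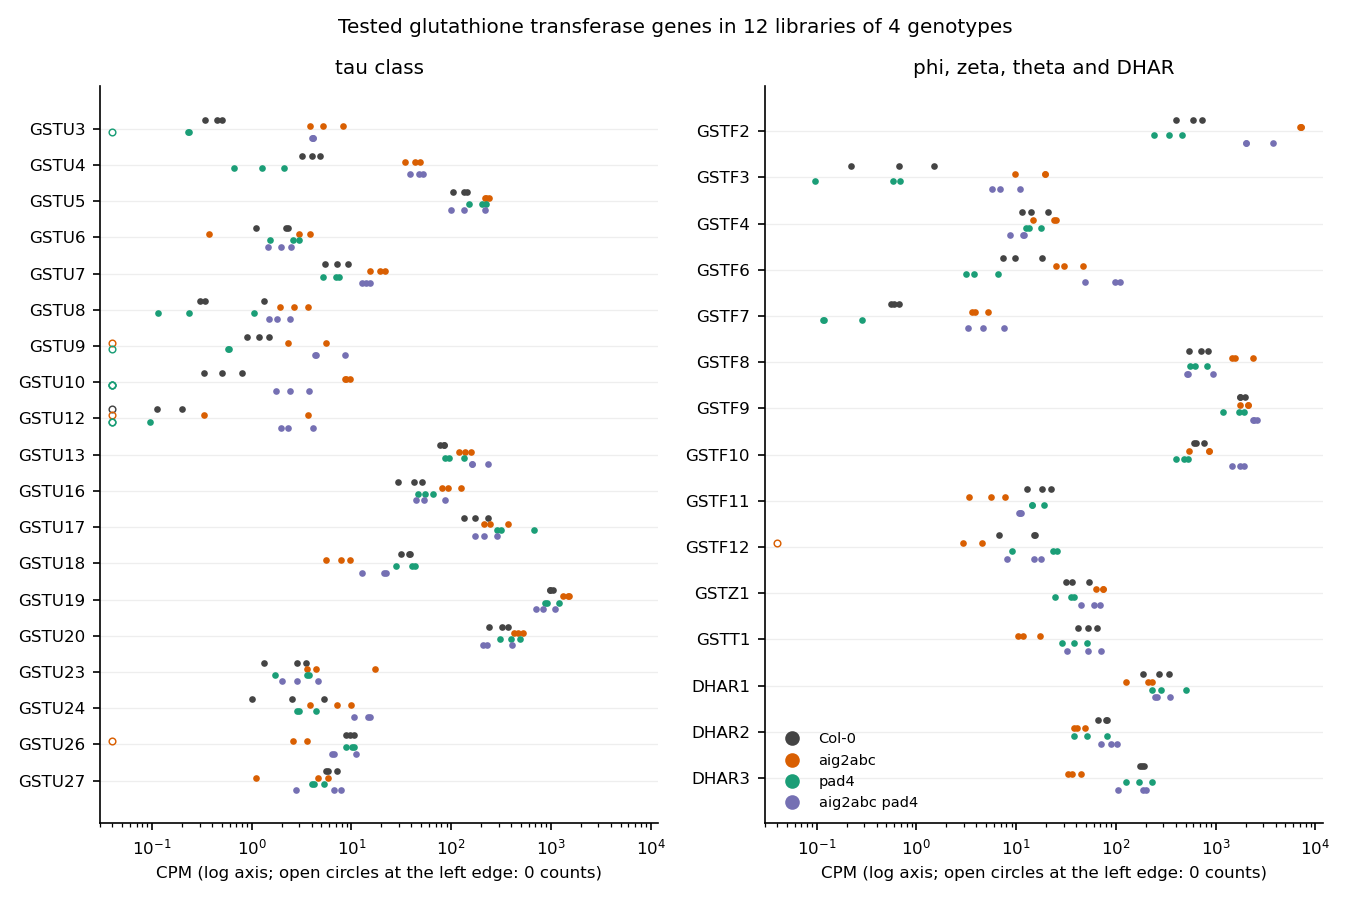
CPM on a log axis for each of the 34 tested members, tau genes on the left and the other classes on the right, with 1 point per library coloured by genotype and open circles for libraries with 0 counts. Orange aig2abc points and purple aig2abc pad4 points lie to the right of the black and green control points for GSTU3, GSTU4, GSTF2, GSTF3, GSTF6 and GSTF7, and the orange points lie to the left for GSTU18, GSTT1 and DHAR3.

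The first question was what the AIG2 mutations changed where PAD4 was intact. In aig2abc against Col-0, 16 of the 34 tested members were higher and 7 lower (edgeR quasi-likelihood test, Benjamini-Hochberg adjusted p under 0.05 over 15082 genes), which is 67.6% of them against 37.5% of all genes tested, of which 18% were higher and 19.5% lower. Their median log2 change was 0.78 and that of all genes -0.08. Among the 16 are GSTU3, GSTU8, GSTU10, GSTU12, GSTF3 and GSTF7, which passed the filter through the groups with the AIG2 mutations. The share is therefore not independent of the filter. How many of all genes passed in that way was not counted. Tau genes were higher in 10 of 19 cases and lower in 2, with a median of 1.27, and phi genes higher in 5 of 10 and lower in 2, with a median of 0.89. No DHAR gene was higher and 2 of 3 were lower. In these bulk samples, fewer cells of a type and less RNA per cell cannot be told apart. The lower mesophyll markers and the low scores on the replicate axis move with this comparison. With the score as a covariate 10 members were higher and 6 lower, and after thinning every library to the lowest depth 8 were higher. The covariate can take out part of the aig2abc change itself. The share of all genes called in these fits is not given here, so the counts lack a background. The part of the mesophyll change in these results was not tested.

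GSTF2 (AT4G02520), a phi protein known to bind indole compounds such as camalexin, had 404, 597 and 734 CPM in the Col-0 libraries and 6967, 7212 and 7229 CPM in aig2abc. The 3 aig2abc libraries were nearly equal and far above every Col-0 library. This was a 12.3-fold rise, with a log2 change of 3.62 ± 0.34 (SE; edgeR adjusted p = 3.03e-06). GSTF3 (AT2G02930), its near copy on another chromosome, had 0.222, 0.675 and 1.5 CPM in Col-0 and 19.3, 9.65 and 19.4 CPM in aig2abc, without overlap. Its log2 change was 4.36 ± 0.55 (edgeR adjusted p = 5.44e-05), and 5.32 without Col-0 replicate 3.

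GSTF6 (AT1G02930), which has been linked to the glutathione step of camalexin synthesis, had 18, 7.42 and 9.68 CPM in Col-0 and 30.4, 25.1 and 47.3 CPM in aig2abc. GSTF7 (AT1G02920), next to it on chromosome 1, had 0.555, 0.675 and 0.599 CPM in Col-0 and 5.19, 3.86 and 3.61 CPM in aig2abc. Both were higher in every aig2abc library, with log2 changes of 1.59 ± 0.39 for GSTF6 and 2.80 ± 0.52 for GSTF7 (edgeR adjusted p = 0.00535 and 0.000805). The GSTF7 levels rest on 5, 4 and 6 counts in Col-0 and 14, 2 and 11 in aig2abc. GSTF8 (AT2G47730) had 540, 832 and 717 CPM in Col-0 and 1581, 2372 and 1453 CPM in aig2abc, again with no overlap. Its log2 change was 1.37 ± 0.30 (edgeR adjusted p = 0.00263), and 0.58 when the axis score was a covariate (adjusted p = 0.209).

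Other phi genes fell or did not pass the test. GSTF11 (AT3G03190), which acts in aliphatic glucosinolate synthesis, had 18.3, 22.6 and 12.9 CPM in Col-0 and 3.34, 7.72 and 5.58 CPM in aig2abc. GSTF12 (AT5G17220), the carrier needed for anthocyanin to reach the vacuole, had 15.2, 15.5 and 6.69 CPM in Col-0 and 2.97, 0 and 4.6 CPM in aig2abc. Every aig2abc library lay below every Col-0 library for both, with log2 changes of -1.85 ± 0.35 and -1.88 ± 0.56 (edgeR adjusted p = 0.000852 and 0.0153), and the GSTF12 call was lost without aig2abc replicate 1 (adjusted p = 0.0667) and with the axis covariate (-0.82, adjusted p = 0.397). The abundant GSTF9 and GSTF10 were at 2006 ± 212 and 756 ± 190 CPM in aig2abc, with libraries that overlapped Col-0, and neither passed the test.

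Among the tau genes, 4 had fitted rises over 10-fold. GSTU4 (AT2G29460), found in complexes with camalexin enzymes, had 4, 3.21 and 4.89 CPM in Col-0 and 43.4, 34.7 and 49.2 CPM in aig2abc. Its chromosome neighbour GSTU3 (AT2G29470) had 0.444, 0.337 and 0.499 CPM in Col-0 and 5.19, 3.86 and 8.21 CPM in aig2abc. The GSTU3 levels rest on 4, 2 and 5 counts in Col-0 and 14, 2 and 25 in aig2abc. The log2 changes were 3.41 ± 0.33 for GSTU4 and 3.78 ± 0.54 for GSTU3 (edgeR adjusted p = 3.08e-06 and 0.000139), with no overlap between the genotypes.

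GSTU10 (AT1G74590) had 0.333, 0.506 and 0.798 CPM in Col-0 and 8.53, 9.65 and 8.86 CPM in aig2abc, without overlap. These levels rest on few counts, 3, 3 and 8 in Col-0 and 23, 5 and 27 in aig2abc. The log2 change was 3.96 ± 0.52 (edgeR adjusted p = 0.000113). GSTU12 (AT1G69920) rested on few counts: 3 in the Col-0 libraries together and 11 in aig2abc, 10 of them in replicate 1. The ratio of CPM was 14.6, with an exact 95% counting interval of 3.86 to 81.6, and the log2 change of 3.67 ± 1.04 became 1.07 without aig2abc replicate 1 (edgeR adjusted p = 0.0118 and 0.672).

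Smaller rises were called for GSTU5, GSTU7, GSTU8, GSTU13, GSTU16 and GSTU24. GSTU7, which protects against the oxidizing herbicide methyl viologen, had 9.21, 5.4 and 7.09 CPM in Col-0 and 21.9, 15.4 and 19.4 CPM in aig2abc, with no overlap and a log2 change of 1.42 ± 0.29 (edgeR adjusted p = 0.00146). GSTU16 was at 41.1 ± 11.3 CPM in Col-0 and 99.7 ± 22.4 CPM in aig2abc. The change of 1.29 ± 0.30 on the log2 scale was 0.51 with the axis covariate (edgeR adjusted p = 0.00373 and 0.243). GSTU13, needed in the myrosinase-dependent defence that consumes indole glucosinolates, stood at 82.4 ± 4.3 CPM in Col-0 and 139 ± 19.9 CPM in aig2abc. Its log2 change of 0.77 ± 0.25 (edgeR adjusted p = 0.0242) failed without aig2abc replicate 3 (0.65, adjusted p = 0.108) and with the axis covariate (0.49, adjusted p = 0.289).

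The calls for GSTU5 and GSTU24 were also lost when single libraries were left out. GSTU5 changed by 0.83 ± 0.28 on the log2 scale (edgeR adjusted p = 0.0299), which without Col-0 replicate 1 became 0.66 (adjusted p = 0.127) and with the axis covariate 0.03 (adjusted p = 0.972). GSTU24, an enzyme that conjugates the explosive trinitrotoluene, changed by 1.34 ± 0.47, by 0.98 without aig2abc replicate 1 (edgeR adjusted p = 0.0338 and 0.229) by 2.06 without Col-0 replicate 3, and by 0.88 with the axis covariate (adjusted p = 0.311). GSTU8 changed by 2.12 ± 0.74, by 1.80 without aig2abc replicate 1 (edgeR adjusted p = 0.0324 and 0.162) and by 3.14 without Col-0 replicate 1. The abundant GSTU19 and GSTU20, the latter a partner of the jasmonate-conjugating enzyme JAR1, were higher in every aig2abc library, at 1439 ± 94 and 473 ± 53.7 CPM, but did not pass the test (log2 changes of 0.51 ± 0.24 and 0.61 ± 0.29).

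The lower tau genes were GSTU18 and GSTU26. GSTU18 (AT1G10360) had 38.6, 38 and 31.4 CPM in Col-0 and 7.79, 9.65 and 5.58 CPM in aig2abc. GSTU26 (AT1G17190) had 8.77, 10.6 and 9.78 CPM in Col-0 and 2.6, 0 and 3.61 CPM in aig2abc. The groups did not overlap in either case, and the log2 changes were -2.34 ± 0.33 and -1.81 ± 0.42 (edgeR adjusted p = 0.000126 and 0.00353).

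GSTT1 (AT5G41210), the theta enzyme, had 64.8, 41.8 and 52.8 CPM in Col-0 and 10.4, 17.4 and 11.8 CPM in aig2abc. DHAR3 (AT5G16710), the chloroplast dehydroascorbate reductase, had 191, 183 and 176 CPM in Col-0 and 36.3, 44.4 and 33.5 CPM in aig2abc. Neither gene had overlapping groups, and the log2 changes were -2.12 ± 0.35 and -2.30 ± 0.31 (edgeR adjusted p = 0.000409 and 8.59e-05), also called with the axis covariate. The cytosolic DHAR2 changed by -0.82 ± 0.29 (edgeR adjusted p = 0.0339), a call lost without any of 4 libraries (-0.73 and adjusted p = 0.129 without aig2abc replicate 3) and with the axis covariate (-0.25, adjusted p = 0.648). DHAR1, the other cytosolic form, was at 268 ± 75.7 CPM in Col-0 and 190 ± 56.8 CPM in aig2abc with overlapping libraries. GSTZ1, the maleylacetone isomerase of tyrosine breakdown, changed by 0.80 ± 0.27 (edgeR adjusted p = 0.0289), by 0.67 without aig2abc replicate 1 (adjusted p = 0.147) and by 0.26 with the axis covariate (adjusted p = 0.627).

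The same question was put where PAD4 was lost, with aig2abc pad4 against pad4. This comparison shares no library with the first, but it shares the fit and its estimate of spread, so it is not independent. Here 12 of the 34 tested members were higher and 1 lower, which is 38.2% against 4% of all genes tested (edgeR, same threshold), of which 3.34% were higher and 0.663% lower. The medians were 0.51 over the members and -0.02 over all genes. Among the 12 are GSTU3, GSTU9, GSTU10, GSTU12, GSTF3 and GSTF7, which passed the filter through the groups with the AIG2 mutations. This share too is not independent of the filter. Tau genes were higher in 7 of 19 cases and lower in 1, phi genes higher in 5 of 10, and no zeta, theta or DHAR gene passed. The mesophyll marker sums of aig2abc pad4 were below those of pad4 without overlap, and their part in these results was not tested. With the axis score as a covariate 17 were higher, and thinned to the smallest total 4. For these fits too the share of all genes called is not given here, so the counts lack a background.

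The members called higher in both comparisons were 10: GSTU3, GSTU4, GSTU7, GSTU10, GSTU12, GSTU24, GSTF2, GSTF3, GSTF6 and GSTF7. The share of all genes tested that were higher in both was not counted, so this number has no background. GSTU3, GSTU10, GSTU12, GSTF3 and GSTF7 passed the filter through the groups in which they were high. GSTU4 had 0.669, 1.26 and 2.11 CPM in pad4 and 38.7, 47.6 and 52.6 CPM in aig2abc pad4. GSTF6 had 3.82, 6.55 and 3.16 CPM in pad4 and 97.8, 111 and 48.5 CPM in aig2abc pad4. No pair of groups overlapped, with log2 changes of 5.11 ± 0.36 and 4.25 ± 0.42 (edgeR adjusted p = 5.24e-08 and 3.45e-06).

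GSTF7 had 0.287, 0.115 and 0.117 CPM in pad4 and 7.6, 4.67 and 3.29 CPM in aig2abc pad4, a log2 change of 4.74 ± 0.53 (edgeR adjusted p = 1.39e-05). GSTF2 had 241, 462 and 342 CPM in pad4 and 2002, 2025 and 3784 CPM in aig2abc pad4, a log2 change of 2.90 ± 0.33 (edgeR adjusted p = 1.99e-05). For both genes every aig2abc pad4 library was above every pad4 library, and for GSTF2 replicate 3 was well above its group. GSTF3 changed by 4.09 ± 0.57 and GSTU3 by 4.64 ± 0.58, the latter by 4.03 without pad4 replicate 1 (edgeR adjusted p = 0.000185 and 5.35e-05 with all libraries).

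GSTU10 had 0 counts in all pad4 libraries and 1.73, 2.41 and 3.78 CPM in aig2abc pad4, which is at least 22.8-fold higher with a floor of 3 counts over the group (edgeR adjusted p = 6.9e-05). GSTU12 had 1 count in pad4 and 63 in aig2abc pad4, spread over 3 libraries at 2.31, 4.07 and 1.97 CPM. The ratio of CPM was 75.6, with an exact 95% counting interval of 13.1 to 3030, and the fitted log2 change of 5.69 ± 0.98 was 7.19 without pad4 replicate 1 (edgeR adjusted p = 0.00147 with all libraries). GSTU24 and GSTU7 rose by 1.98 ± 0.42 and 1.10 ± 0.27 on the log2 scale (edgeR adjusted p = 0.0081 and 0.0239). Without pad4 replicate 2 these were 1.89 and 0.96 (adjusted p = 0.0567 and 0.137).

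GSTF10 and GSTU9 were called higher here and not in the first comparison. GSTF10 (AT2G30870), known as the dehydration-induced ERD13, had 529, 478 and 397 CPM in pad4 and 1753, 1952 and 1451 CPM in aig2abc pad4. All 3 aig2abc pad4 libraries were also above the 536 to 867 CPM of aig2abc, and the log2 change was 1.88 ± 0.26 (edgeR adjusted p = 0.000149). GSTU9 had 0, 0.575 and 0.585 CPM in pad4 and 4.43, 8.59 and 4.28 CPM in aig2abc pad4, a log2 change of 3.90 ± 0.67 (edgeR adjusted p = 0.00142), and of 3.27 without pad4 replicate 1. In aig2abc its libraries were at 5.56, 0 and 2.3 CPM, which overlapped Col-0 (1.47 ± 0.69, edgeR adjusted p = 0.101).

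Another 6 members were called higher in the first comparison and not here: GSTU5, GSTU8, GSTU13, GSTU16, GSTF8 and GSTZ1. GSTU8, GSTU13 and GSTZ1 had log2 changes of 1.94 ± 0.67, 0.81 ± 0.25 and 0.83 ± 0.26, close in size to those of the first comparison, and aig2abc pad4 libraries that lay above pad4 (edgeR adjusted p = 0.144, 0.0865 and 0.102). GSTF8 had 664 ± 247 CPM in aig2abc pad4 and 666 ± 136 CPM in pad4. GSTU18, the lower member, had 43.4, 40.2 and 28.1 CPM in pad4 and 22.2, 21.2 and 12.7 CPM in aig2abc pad4, a log2 change of -0.99 ± 0.27 (edgeR adjusted p = 0.0456) whose call was lost without any of 10 libraries (-0.93, adjusted p = 0.16 without pad4 replicate 2).

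**Figure D3:**
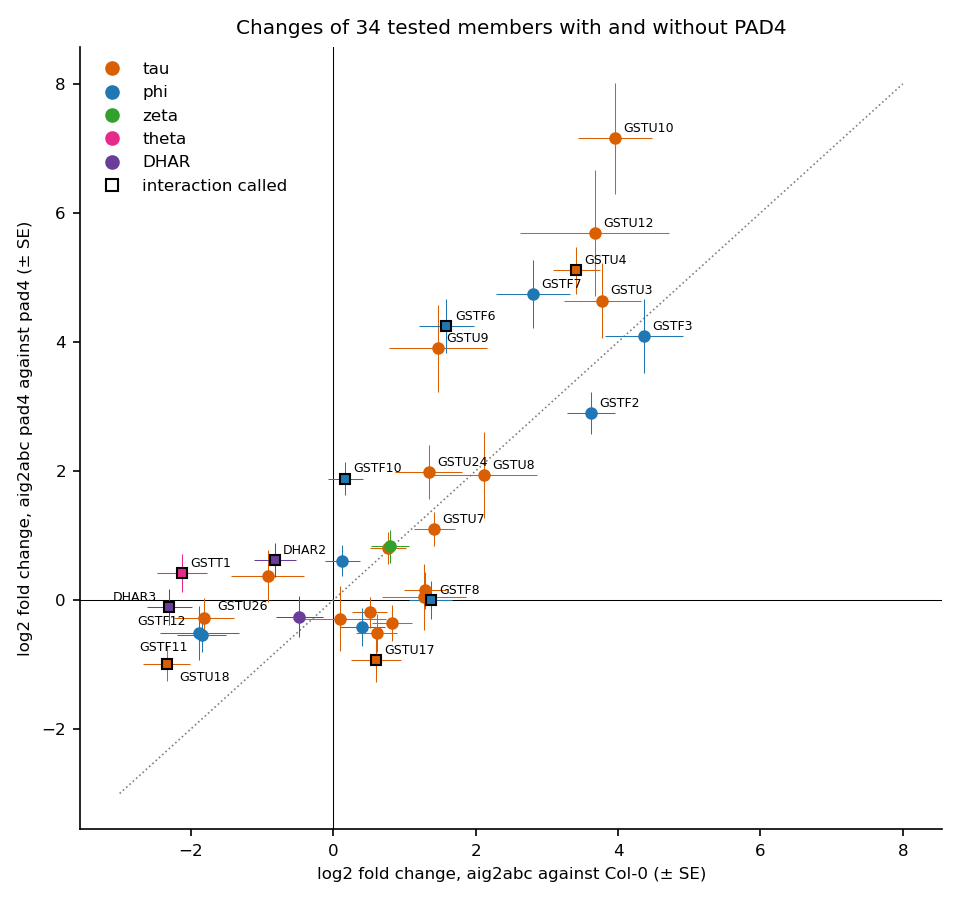
Log2 fold change of each of the 34 tested members in aig2abc against Col-0 (x axis) and in aig2abc pad4 against pad4 (y axis), with SE bars, coloured by class; squares with a black edge mark members whose changes differed between the axes by the interaction test, and the dotted line marks equal changes. GSTU4, GSTF6 and GSTF10 lie above the line and GSTF8 below it, while GSTT1 and DHAR3 sit far to the left near 0 on the y axis; the GSTU10 value on the y axis is a fitted change against 0 counts.

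The sequences upstream of 5 of the 10 genes that moved together in both comparisons are shown with short motifs that stress-related regulators are known to bind. They are the 250 bases before the gene start in RefSeq's annotation of assembly TAIR10.1, written 5′ to 3′ on the gene's strand. The motifs in capitals were sought on both strands: TGACG, the core of the as-1 element bound by TGA factors, TTGACC and TTGACT, forms of the W-box bound by WRKY factors, and GCCGCC, the GCC-box bound by ERF factors. GSTU4 (chr2:12627892-12628141, minus strand), GSTU10 (chr1:28024861-28025110, minus strand), GSTU12 (chr1:26335631-26335880, minus strand) and GSTF7 (chr1:659981-660230, minus strand) are given as examples, chosen after their values were seen, and GSTF2 (chr4:1112034-1112283, minus strand) as the most abundant of the 10.
GSTU4: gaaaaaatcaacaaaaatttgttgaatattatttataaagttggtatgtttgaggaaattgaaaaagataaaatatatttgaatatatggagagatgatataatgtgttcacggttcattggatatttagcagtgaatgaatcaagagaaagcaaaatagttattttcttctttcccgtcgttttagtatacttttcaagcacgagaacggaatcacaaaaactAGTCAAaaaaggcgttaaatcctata
GSTU10: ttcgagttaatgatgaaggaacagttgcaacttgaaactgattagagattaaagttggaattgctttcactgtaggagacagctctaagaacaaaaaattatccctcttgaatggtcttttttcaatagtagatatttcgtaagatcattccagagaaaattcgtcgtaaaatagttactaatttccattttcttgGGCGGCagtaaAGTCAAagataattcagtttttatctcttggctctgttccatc
GSTU12: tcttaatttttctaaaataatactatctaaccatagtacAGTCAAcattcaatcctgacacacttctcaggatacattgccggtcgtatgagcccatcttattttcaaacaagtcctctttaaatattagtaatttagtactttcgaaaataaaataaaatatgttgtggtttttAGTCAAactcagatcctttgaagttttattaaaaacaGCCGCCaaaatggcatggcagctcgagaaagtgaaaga
GSTF7: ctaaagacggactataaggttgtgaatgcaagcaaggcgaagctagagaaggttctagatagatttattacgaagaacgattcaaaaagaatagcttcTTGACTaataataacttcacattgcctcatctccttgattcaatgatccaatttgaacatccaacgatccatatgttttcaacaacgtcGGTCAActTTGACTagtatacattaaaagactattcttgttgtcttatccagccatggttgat
GSTF2: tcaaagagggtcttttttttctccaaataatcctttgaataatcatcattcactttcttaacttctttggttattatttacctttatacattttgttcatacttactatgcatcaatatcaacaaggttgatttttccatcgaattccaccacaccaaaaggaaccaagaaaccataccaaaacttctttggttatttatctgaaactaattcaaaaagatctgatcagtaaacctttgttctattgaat

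GSTU4 had a W-box at 26 bases before its start, and GSTU10 had a GCC-box at 54 and a W-box at 43 bases. GSTU12 had W-boxes at 211 and 75 bases and a GCC-box at 38 bases. GSTF7 had W-boxes at 152, 63 and 55 bases and GSTF2 none of the motifs. Of the 10 genes, TGACG was found before 4 (GSTU3, GSTU7, GSTU24 and GSTF3), none of them printed here. GCCGCC was found before 2, both printed, and either W-box before 9. Over all 47 members TGACG was found before 16, GCCGCC before 3 and either W-box before 23. These counts were not tested. Of 27443 windows of the same length before protein-coding genes, 28.4% held either W-box, 18.6% TGACG and 1.87% GCCGCC. A match is a string of letters, not a shown binding site.

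Whether the change with aig2abc itself depended on PAD4 was tested as the interaction, the difference between the 2 changes. It was positive for 7 of the 34 tested members and negative for 2, which is 26.5% against 14.8% of all genes tested (edgeR, same threshold; 8.53% positive and 6.23% negative), with medians of 0.55 and 0.13. These counts moved with single libraries: without aig2abc pad4 replicate 3 they were 12 and 8, and without aig2abc pad4 replicate 2, aig2abc replicate 2, aig2abc replicate 3 or pad4 replicate 2 they were 4 and 0. The share of all genes called without these libraries is not given here, so such counts lack a background. GSTT1, DHAR3, GSTF6 and GSTF10 kept their calls without each of the 12 libraries. The mesophyll sums also differed this way, with aig2abc below aig2abc pad4, and LHCB1.3, a mesophyll marker for a light-harvesting protein, had an interaction of 2.31 ± 0.41 (edgeR adjusted p = 0.011). The 4 mesophyll markers were not alike. RBCS1A had means of 6425 CPM in Col-0, 5505 in aig2abc, 8024 in pad4 and 5363 in aig2abc pad4. In the same order RCA had 397, 201, 452 and 353 CPM, and LHCA1 13070, 4606, 14740 and 9096 CPM. AIG2B and AIG2A had interactions of -2.28 ± 0.61 and 1.68 ± 0.31 (edgeR adjusted p = 0.0272 and 0.0115). The part of these in the members' interactions was not tested.

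GSTT1 had 51.3, 37.8 and 28.7 CPM in pad4 and 53.1, 71.3 and 32.7 CPM in aig2abc pad4. These overlapped, and lay above the 10.4 to 17.4 CPM of aig2abc. The interaction was 2.54 ± 0.46 on the log2 scale (edgeR adjusted p = 0.0111). DHAR3 had 232, 172 and 126 CPM in pad4 and 186, 201 and 104 CPM in aig2abc pad4, again overlapping and above aig2abc, with an interaction of 2.19 ± 0.41 (edgeR adjusted p = 0.012). Both were also called with the axis covariate.

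The interaction was 2.66 ± 0.55 for GSTF6 and 1.70 ± 0.36 for GSTF10 (edgeR adjusted p = 0.014 and 0.014). GSTF6 rose more in the background without PAD4, and GSTF10 was called higher in that background alone. The interaction of GSTF6 was 1.41 with the axis covariate (adjusted p = 0.0937). GSTU4 had an interaction of 1.70 ± 0.46 (edgeR adjusted p = 0.0272), with similar levels in aig2abc (42.5 ± 7.3 CPM) and aig2abc pad4 (46.3 ± 7.07 CPM) and unequal ones in Col-0 (4.03 ± 0.844) and pad4 (1.35 ± 0.722). Its call was lost without any of 5 libraries (1.75, adjusted p = 0.064 without aig2abc pad4 replicate 2).

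The 4 remaining calls were less stable. DHAR2 had 1.44 ± 0.40 and GSTU18 1.35 ± 0.42, and GSTF8 had -1.37 ± 0.42 and GSTU17, a regulator of drought responses, -1.53 ± 0.49 (edgeR adjusted p = 0.0289, 0.0422, 0.0401 and 0.0458). DHAR2 lost its call without any of 7 libraries (1.22, adjusted p = 0.0763 without pad4 replicate 3). GSTU18 and GSTF8 lost theirs without any of 9 (1.13, adjusted p = 0.131 without aig2abc replicate 3, and -1.13, adjusted p = 0.132 without aig2abc pad4 replicate 2), and GSTU17 too. All 4 were lost with the axis covariate. GSTU17 had 681 CPM in pad4 replicate 2 and 288 to 314 CPM in the other pad4 libraries, and its interaction was -1.01 without that library (adjusted p = 0.129). The 3′ ends of GSTU17 and the start of GSTU18 overlap in the annotation, which makes the division of counts between them uncertain.

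**Figure D4:**
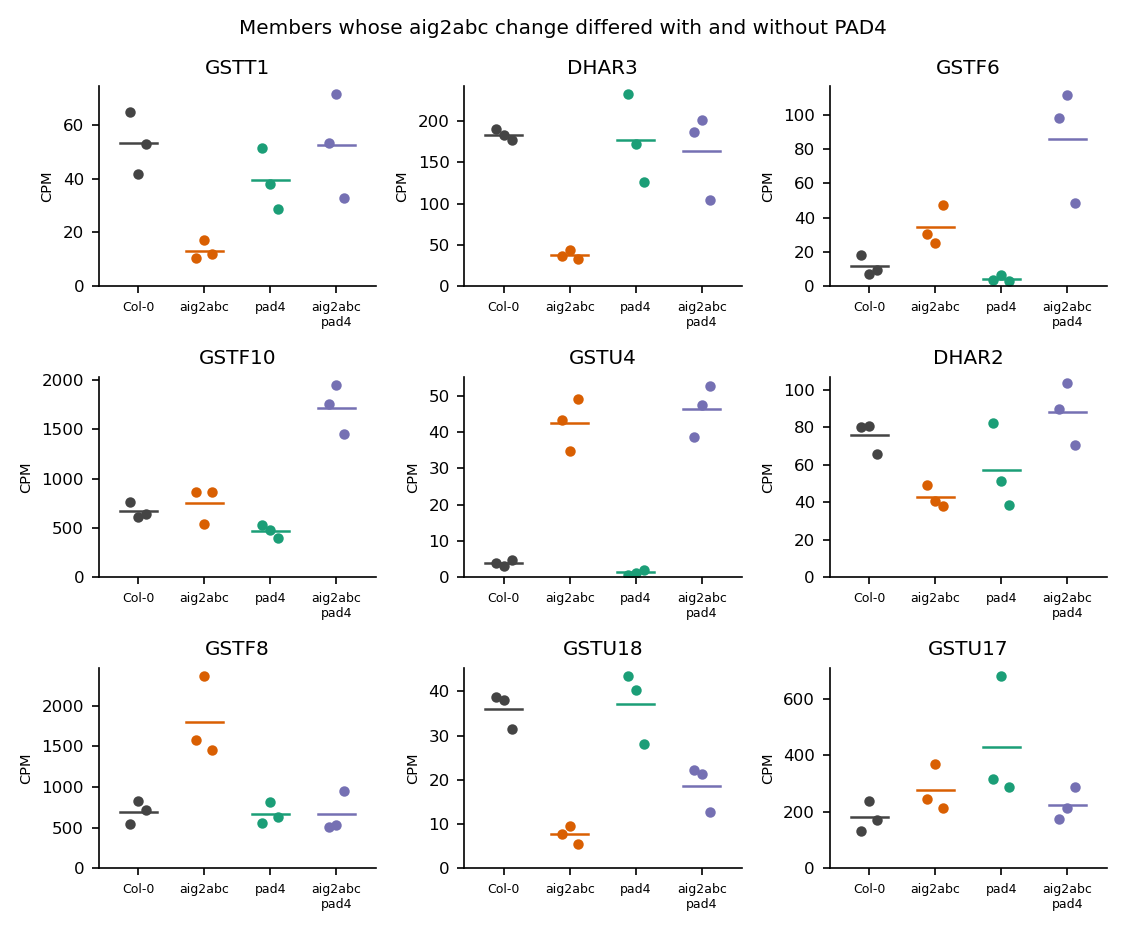
CPM of the 9 members with a called interaction in the libraries of each genotype; points are libraries and bars are means of 3, and each panel has its own axis from 0. GSTT1, DHAR3 and DHAR2 are low in aig2abc and not in aig2abc pad4, GSTF6 and GSTF10 are highest in aig2abc pad4, and GSTF8 is high in aig2abc and not in aig2abc pad4.

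PAD4 loss alone changed few members. In pad4 against Col-0, 0 of the 34 tested members were higher and 2 lower, which is 5.88% against 0.69% of all genes tested (edgeR, same threshold; 0.00663% higher and 0.683% lower), with medians of -0.16 and -0.01. GSTU4 changed by -1.61 ± 0.36 on the log2 scale without overlap of the groups (edgeR adjusted p = 0.0456), a call lost without any of 10 libraries (-1.44, adjusted p = 0.257 without Col-0 replicate 3). GSTU10 had 14 counts in Col-0 and 0 in pad4, at least 5.18-fold lower with the floor of 3 counts (edgeR adjusted p = 0.0371), a call lost without any of 9 libraries (adjusted p = 0.183 without Col-0 replicate 3). GSTF6 and GSTF7 were lower in every pad4 library than in every Col-0 library and did not pass (-1.38 ± 0.40 and -1.66 ± 0.64, edgeR adjusted p = 0.216 and 0.641).

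Against aig2abc, which is labelled with the same AIG2 genes, aig2abc pad4 was higher for 9 of the 34 tested members and lower for 5, which is 41.2% against 24.3% of all genes tested (edgeR, same threshold; 12.8% higher and 11.5% lower), with medians of 0.19 and 0.08. This comparison and the interaction use the same aig2abc libraries as the first comparison, so a high or low value there enters each of them. Between these genotypes AIG2B also changed by -1.92 ± 0.44, AIG2A by 1.24 ± 0.22 and LHCB1.3 by 1.89 ± 0.30 (edgeR adjusted p = 0.00775, 0.00269 and 0.00158), and their part was not tested. Of the other mesophyll markers, RBCS1A had means of 5505 CPM in aig2abc and 5363 CPM in aig2abc pad4. RCA had 201 and 353 CPM, and LHCA1 4606 and 9096 CPM. The lower members were GSTF2, GSTF4, GSTF8, GSTU10 and GSTU19. GSTF2 changed by -1.45 ± 0.32 and GSTF8 by -1.44 ± 0.30 on the log2 scale (edgeR adjusted p = 0.00579 and 0.00502), without overlap of the groups. GSTU10 changed by -1.77 ± 0.45, GSTF4 by -0.93 ± 0.31 and GSTU19 by -0.71 ± 0.24 (edgeR adjusted p = 0.0129, 0.0387 and 0.0396). Without aig2abc pad4 replicate 1 these were -1.45, -0.71 and -0.48 (adjusted p = 0.0819, 0.193 and 0.264). No lower call was left with the axis covariate, and without aig2abc pad4 replicate 3 there were 9. For these fits the share of all genes called is not given here either.

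The higher members were DHAR2, DHAR3, GSTT1, GSTU18, GSTU26, GSTF6, GSTF10, GSTF11 and GSTF12. GSTF12 stood at 13.6 ± 4.98 CPM in aig2abc pad4 and 2.52 ± 2.33 CPM in aig2abc, and GSTF11 at 10.9 ± 0.198 and 5.54 ± 2.19 CPM. The log2 changes were 2.02 ± 0.56 and 1.15 ± 0.35 (edgeR adjusted p = 0.0173 and 0.0266). Without aig2abc replicate 1 neither passed (2.01 and 0.94, adjusted p = 0.0682 and 0.123). Calls were also lost without aig2abc pad4 replicate 2 for GSTF6 and GSTU26 (adjusted p = 0.0862 and 0.0774) and without aig2abc replicate 3 for GSTU18 and DHAR2 (1.18 and 0.95, adjusted p = 0.0604 and 0.0791). GSTT1 and DHAR3 changed by 2.10 ± 0.35 and 2.14 ± 0.31 (edgeR adjusted p = 0.002 and 0.00117), and they were the higher calls that were also made with the axis covariate.

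Members that lie side by side in the genome did not all move together. By RefSeq's TAIR10.1 annotation, 31 of the 47 members lie in 10 groups with at most 5 other protein-coding genes between neighbours, and 16 lie singly. On chromosome 2, GSTU7, GSTU6, GSTU5, GSTU4, GSTU3, GSTU2 and GSTU1 follow each other on the minus strand with at most 1 other gene between. Of these GSTU7, GSTU4 and GSTU3 were called higher in both comparisons, GSTU5 in the first, GSTU6 in neither (0.09 ± 0.65 and -0.29 ± 0.50), and GSTU2 and GSTU1 had 2 and 29 counts in all. On chromosome 1, GSTF7 and GSTF6 were called higher in both, while the next genes along were GSTF5, with 28 counts, and GSTF4, with log2 changes of 0.41 ± 0.31 and -0.42 ± 0.29 (edgeR adjusted p = 0.303 and 0.593). The neighbours GSTF9 and GSTF10 on chromosome 2 had changes of 0.61 ± 0.24 and 1.88 ± 0.26 in aig2abc pad4 against pad4 (edgeR adjusted p = 0.221 and 0.000149).

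**Figure D5:**
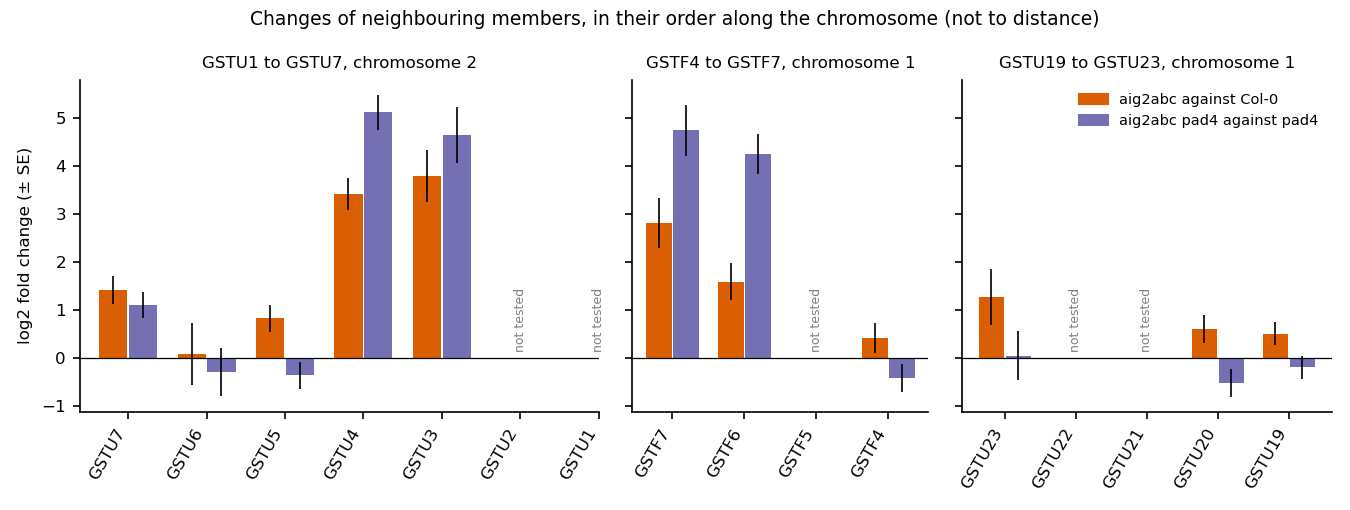
Log2 fold changes with SE of neighbouring members in aig2abc against Col-0 (orange) and aig2abc pad4 against pad4 (purple), in their order along the chromosome and not to distance; untested members are marked. In the chromosome 2 group GSTU4 and GSTU3 reach 3.41 to 5.11 while GSTU6 and GSTU5 stay under 1, and in the GSTF group GSTF7 and GSTF6 rise while GSTF4 stays near 0.

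Coding sequences were compared because near copies can share reads. Identity was 46.1 to 85.5% within the tau class (median 54.9%), 42.4 to 94.5% within phi (52.6%) and 41.7 to 49.9% between the classes (46.8%). Of 1081 pairs, 11 reached 80%. The closest were GSTF2 and GSTF3 at 94.5% and GSTF6 and GSTF7 at 94.3%, pairs that rose together but differed in level, with GSTF2 at 7136 ± 146 CPM and GSTF3 at 16.1 ± 5.58 CPM in aig2abc. How multi-mapping reads were treated is not given in the sources used here, so the levels of GSTF3 and GSTF7 are uncertain. In the last 400 bases of the transcript, where a 3′ tag falls, 45 of the members shared 0 of 351 stretches of 50 bases with any other gene's transcripts, GSTU17 shared 6.27% with GSTU18, and DHAR1 shared 28.2% with AT1G19550, which had 0 to 6 counts per library. Other close pairs split by level or direction: GSTU5 was counted at 105 CPM or more in Col-0 and GSTU6 at 2.33 or less (83.1% identity), and GSTU16 was tested while GSTU15 had 1 count (83.1%).

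Genes that work with these enzymes were read beside them, each list against the 37.5% of all genes called in aig2abc against Col-0 and the 4% called in aig2abc pad4 against pad4. The lists here and below were chosen with earlier results of these data known, so a share above the background is not independent support. With the axis covariate 46 of the 62 calls of these genes over the 5 comparisons were lost and 1 reversed. Among 7 tested glutathione transferases of other classes, 3 were higher and 1 lower in the first comparison (57.1%), and 1 was higher in the second (14.3%). GSTL1, a lambda enzyme induced by pathogens and safeners, was the one higher in both, with log2 changes of 2.80 ± 0.56 and 4.57 ± 0.62 (edgeR adjusted p = 0.00145 and 0.000111). Of 11 tested genes for glutathione synthesis, reduction and peroxidases, 2 were higher and 1 lower in the first comparison (27.3%, below the background) and 1 was higher in the second (9.09%). GPX6, a glutathione peroxidase-like enzyme, rose from 148 ± 31.6 to 550 ± 26.9 CPM in aig2abc, and GSH2, which completes glutathione, from 30 ± 4.22 in pad4 to 88.3 ± 29 CPM in aig2abc pad4 (edgeR adjusted p = 0.000729 and 0.0014).

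Of 7 tested genes for conjugate transport and breakdown, 3 were higher and 1 lower in aig2abc against Col-0 (57.1%), and 1 was higher in aig2abc pad4 against pad4 (14.3%). ABCC1, a vacuolar conjugate pump, changed by 1.43 ± 0.24 in the first comparison, and GGT4, the vacuolar peptidase that starts conjugate breakdown, by 1.49 ± 0.28 and 1.19 ± 0.28 in the first and second (edgeR adjusted p = 0.000414, 0.00103 and 0.0172). Among 9 tested genes of the xenobiotic response, 3 were higher in the first comparison (33.3%, near the background) and 2 in the second (22.2%). UGT73B5, a glucosyltransferase of the same response, was called in both, by 2.40 ± 0.42 and 2.99 ± 0.39 (edgeR adjusted p = 0.000575 and 7.53e-05).

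Around GSTF12, 2 of 10 tested anthocyanin genes were higher and 2 lower in aig2abc against Col-0, which is 40% and near the background. DFR and LDOX, the late enzymes of anthocyanin synthesis, rose by 2.28 ± 0.44 and 2.34 ± 0.39, while the regulator PAP1 and the glycosyltransferase UF3GT changed by -1.68 ± 0.55 and -3.29 ± 1.11 (edgeR adjusted p = 0.00103, 0.000393, 0.024 and 0.0273). With the axis covariate PAP1 and UF3GT did not pass (-1.72 and -2.31, adjusted p = 0.0697 and 0.265). UF3GT had 1 count in aig2abc and 41 in Col-0, a ratio of CPM of 0.0972 with an exact 95% counting interval of 0.0024 to 0.573. In aig2abc pad4 against pad4, 0 of the 10 passed.

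Around GSTZ1, 0 of 4 tested tyrosine breakdown genes were higher and 1 lower in aig2abc (25%, below the background). FAH, the enzyme of the step after GSTZ1, had 10.2 ± 3.12 CPM in Col-0 and 2.37 ± 0.527 CPM in aig2abc, changing by -2.00 ± 0.45 on the log2 scale (edgeR adjusted p = 0.00283). The axis covariate made this -1.16 (adjusted p = 0.116). Around the DHAR genes, 1 of 6 tested ascorbate cycle genes was higher and 2 lower in aig2abc against Col-0 (50%). MDAR1, a monodehydroascorbate reductase, rose by 1.81 ± 0.37, and APX3 and MDAR6, an ascorbate peroxidase and the organellar reductase, fell by 1.45 ± 0.35 and 1.44 ± 0.38 on the log2 scale (edgeR adjusted p = 0.00164, 0.00441 and 0.00769). With the axis covariate none of the 3 passed (0.64, -0.31 and -0.74, adjusted p = 0.131, 0.522 and 0.274). In aig2abc pad4 against pad4 MDAR2 was the called one of the 6, higher by 1.87 ± 0.34 (edgeR adjusted p = 0.00251).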

How the data were processed

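RNA of whole shoots was profiled by 3′ RNA-seq in 12 libraries. The authors deposited raw counts per gene, in whole numbers and with no normalization. STAR, edgeR and the build TAIR10 are named in the submitters' processing notes. Counting settings, annotation and strand handling were not given in the sources used here. The third pad4 column has a number that no pad4 title carries and was placed by genotype, as pad4 replicate 3.

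Genes passing filterByExpr by genotype (15082 of 33331) had TMM scaling and a two-sided robust quasi-likelihood F-test in edgeR 4.0.16 (R 4.3.3), in 1 fit of 4 group means over 12 libraries, with Benjamini-Hochberg adjustment over all tested genes in each of 5 comparisons and a threshold of 0.05. The common biological coefficient of variation was 28.7%. SEs are from the F statistic. A fold against 0 counts used a floor of 3 counts over the group; intervals and floors cover counting error only. Replicates differed by more than counting noise (chi-square per gene 3.61 to 64.1). The members and gene lists were chosen with earlier results of these data known. Named were members called in any comparison or abundant (mean over 100 CPM), the called anthocyanin and tyrosine genes and up to 3 called genes of each other list; GSTU6 and other uncalled or untested members were added as neighbours or copies.

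Promoters, neighbours and coding identity (Biopython 1.88) came from RefSeq's TAIR10.1 genome and annotation, which matched all 47 members; the count table holds no coordinates. One upstream sequence is not reported here. Alternatives were RLE size factors, DESeq2 1.42.0, no low-count filter, only the groups compared, a replicate block, the replicate axis as covariate (first principal component of within-group residuals of the 9 libraries outside aig2abc), thinning to 584342 counts and leaving out each library. For the axis covariate, the aig2abc libraries were projected from the mean of the other genotypes, so their scores include the genotype's own difference. The fits were run on simulated data with known changes for aig2abc against Col-0 and aig2abc pad4 against pad4, not for the interaction. The simulated libraries were independent and held no replicate axis, so they cannot show how the fits behave with it. The outcome is not given here.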

Additional observations from a re-analysis of the deposited data

Results flagged for a closer look

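For 9 members the change with aig2abc differed between the backgrounds with and without PAD4 by the interaction test of edgeR over all genes (adjusted p under 0.05). The difference, as the log2 change in aig2abc pad4 against pad4 minus that in aig2abc against Col-0, was 2.66 for GSTF6, 2.54 for GSTT1, 2.19 for DHAR3, 1.70 for GSTF10, 1.70 for GSTU4, 1.44 for DHAR2, 1.35 for GSTU18, -1.37 for GSTF8 and -1.53 for GSTU17. GSTT1, DHAR3, GSTF6 and GSTF10 were called without each of the 12 libraries in turn. The aig2abc libraries, which enter every one of these differences, were the shallowest and scored lowest on the replicate axis. Their score includes the genotype's own difference along the axis. With that score as a covariate, the calls of GSTT1, DHAR3, GSTF10 and GSTU4 held, and those of GSTF6, DHAR2, GSTU18, GSTF8 and GSTU17 did not pass.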

How the results depend on the processing

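Of 61 calls of members over the 5 comparisons, 34 held without each of the 12 libraries, 30 under every other setting that tested them and 27 under both. With the replicate axis as covariate, members higher were 10 (of 16) in aig2abc against Col-0, 2 (of 9) in aig2abc pad4 against aig2abc, 4 (of 7) in the interaction and 1 (of 0) in pad4 against Col-0; members lower were 0 (of 5) in aig2abc pad4 against aig2abc, 2 (of 1) in aig2abc pad4 against pad4, 0 (of 2) in the interaction and 4 (of 2) in pad4 against Col-0. Thinned to the smallest total, members higher were 8 in aig2abc against Col-0, 4 (of 12) in aig2abc pad4 against pad4 and 3 (of 10) in both; members lower were 0 in aig2abc pad4 against pad4, 5 in the interaction and 0 in pad4 against Col-0. After thinning, 18 of the 61 called results were no longer tested, as their genes failed the filter. For the other settings the cause of a shift was not tested. Shares of all genes called under these settings are not given here, so the counts of members lack a background. DESeq2 gave 1 member higher in pad4 against Col-0 and 5 lower in the interaction. No filter gave 1 higher in pad4 against Col-0 and 3 lower in aig2abc pad4 against aig2abc. RLE size factors gave 0 lower in aig2abc pad4 against pad4, and fits of only the groups compared gave 0 lower there and 0 in pad4 against Col-0.

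The replicate numbers paired the libraries in part: same-numbered libraries correlated from -0.27 to 0.55 in their deviations. Replicates 1 of Col-0, pad4 and aig2abc pad4 correlated at 0.52 to 0.55, and replicates 3 of Col-0 and aig2abc pad4 at 0.43. Replicates 2 of these genotypes were at -0.27 to 0.13, and same-numbered pairs with aig2abc at -0.15 to 0.05. Some unlike numbers also correlated, as pad4 replicate 1 with aig2abc pad4 replicate 2 (0.46). A shared batch by number was not tested. With the replicate block, members lower were 4 in the interaction and 1 in pad4 against Col-0, members higher 1 in pad4 against Col-0, and no other count of members moved by over 1.5 times. In that fit pad4 replicate 3, which matches no numbered title, had a block of its own. It therefore did not inform the genotype estimates, and pad4 rested on its other libraries. Shares of all genes called with the block are not given here.

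Leaving out each library, members higher ranged from 11 to 17 in aig2abc against Col-0, 10 to 13 in aig2abc pad4 against pad4, 4 to 9 in aig2abc pad4 against aig2abc, 4 to 12 in the interaction, 0 to 0 in pad4 against Col-0 and 8 to 11 in both. Members lower ranged from 6 to 7, 0 to 1, 2 to 9, 0 to 8 and 0 to 2 in these comparisons. These ranges are also given without the share of all genes called.

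With the axis covariate, GSTF2 in the interaction went from -0.72 to 0.13, GSTU17 in aig2abc against Col-0 from 0.60 to -0.10, and APX1 in aig2abc pad4 against aig2abc, a call, from 1.26 to -0.05. Values near 0 changed sign too. In aig2abc pad4 against pad4, DHAR3 was 0.01 after thinning and -0.30 to 0.14 without single libraries, and GSTF8 0.02 in the fit of 2 groups and -0.35 to 0.17 without single libraries. GSTF10 in aig2abc against Col-0 was -0.01 to 0.36 without single libraries.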
